A study of Drosophila melanogaster with 9 samples.

Results

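The genes described here are fly genes of learning and memory together with fly orthologues of human intellectual disability genes. They were chosen by name: a list of 42 symbols was matched to the gene names of both deposited tables. In all, 40 genes of 17478 matched, and the 2 symbols with no row, CrebB-17A and exba, are RefSeq synonyms of CrebB and kra, which are among the 40. All 40 were expressed strongly enough to be tested in both comparisons, among 11608 such genes.

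The measurements are messenger RNA sequencing of whole heads of adult flies aged 3 to 5 days. There were 3 groups of 3 libraries each. The kdm5[A512P] flies carry an alanine-to-proline change in KDM5, the single fly member of a family of histone demethylases, at a residue altered in a human KDM5C allele of intellectual disability. The kdm5[JmjC*] flies carry a KDM5 with an inactive demethylase (Jumonji C) domain. Wild-type flies are the control of both. The labels used here give neither sex nor strain background, and do not say if the replicates stem from separate fly collections. Every p-value below is thus relative to a spread among libraries that could be purely technical. The same wild type serves as control for each mutant, so the values of the 2 comparisons are set side by side and are not independent of each other.

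Associative memory in flies is formed largely in the mushroom body, where cyclic AMP made by an adenylyl cyclase activates protein kinase A, and CREB-driven transcription serves its long-lasting forms. Around this core act Ras and kinase signalling, RNA-binding proteins that control translation at synapses, cell adhesion and synaptic scaffold proteins, and ubiquitin ligation. Mutations in the human counterparts of many of these genes cause intellectual disability, as do mutations in KDM5C.

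The level of a gene is its mean normalized count over libraries, deposited by the authors as 1 value per gene for both tables. The difference between a mutant and wild type is the authors' log2 fold change (mutant over wild type), with its standard error (SE) and the adjusted p of DESeq2's Wald test (Benjamini-Hochberg over all genes tested). A gene is called when that adjusted p is under 0.05. Percentages of the wild-type level and 95% intervals were computed from the log2 fold change and its SE. No SE exceeds 0.231 even for weakly expressed genes, as in fold changes shrunken towards 0, and values of single libraries were not used here.

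Most of these genes were strongly expressed in the head. Per kilobase of exon, the mean normalized count of 36 of the 40 lay above the median of tested genes, which was 332 per kb, and 7 lay in the top 10%. By the authors' deposited table, 14-3-3zeta was the most abundant, with a mean normalized count of 46869 (12887 per kb), followed per kilobase by kra at 7637 per kb, Tequila at 3562 per kb and Gdi at 3450 per kb. At the other end stood rg at 15.3 per kb, S6kII at 214 per kb and Wnt5 at 262 per kb. The genes were also long: their median summed exon length was 6383 bases, against 1910 bases for tested genes. The 40 genes lay on X (11), 2L (3), 2R (10), 3L (7) and 3R (9). Their SEs were small, with a median of 0.092 on the log2 scale in each comparison, against 0.124 (A512P) and 0.126 (JmjC*) for all tested genes.

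**Figure D1:**
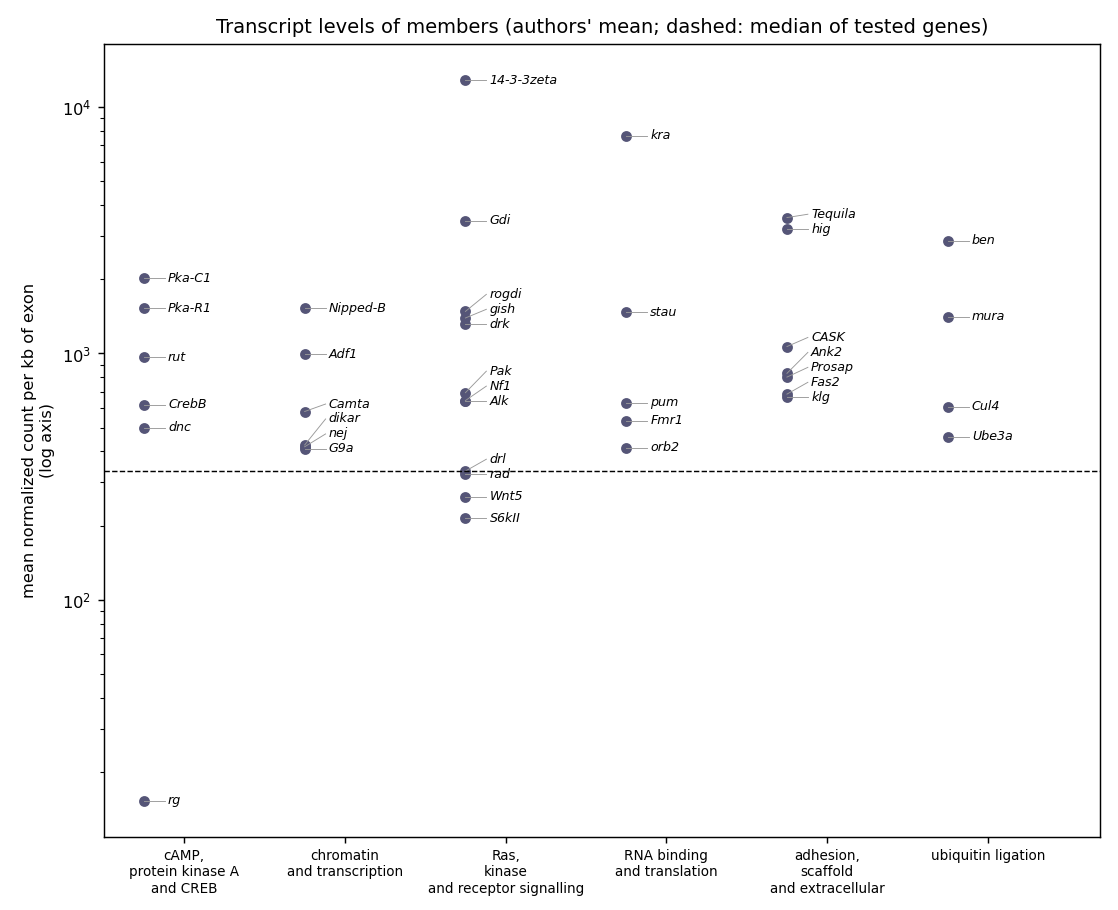
Mean normalized count per kilobase of exon (log axis) of each of the 40 genes, grouped by role, given by the authors as 1 mean per gene that is identical in both deposited tables. The dashed line marks the median of tested genes, 332 per kb; 36 genes lie above it, and rg lies far below the others at 15.3 per kb.

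A small number of these genes differed between mutant and wild-type heads, by modest amounts. In A512P heads 2 of 40 rose and 5 fell, by the authors' deposited table, that is 17.5% called, against 21.0% of all tested genes; with fold changes centred on the median of all genes, 1 rose and 5 fell. In JmjC* heads 2 rose and 9 fell, that is 27.5% called, against 28.8% of the 11898 genes tested in that comparison. With fold changes centred in the same way, 2 rose and 12 fell in JmjC*. The uncentred shares, 17.5% and 27.5%, are near those of all genes, which is no result about the group. Falls alone made up 12.5% of the group in A512P, against 10.8% of all tested genes, and 22.5% in JmjC*, against 14.6%. Rises alone made up 5.0% in each comparison, against 10.2% in A512P and 14.2% in JmjC*. Among the 7255 genes with a count at least that of rg, the weakest of the group, 23.2% were called in A512P and 33.5% in JmjC*. Falls alone were 14.4% of these genes in A512P, above the 12.5% of the group, and 20.0% in JmjC*, near its 22.5%. These genes are not matched to the group in level: their median count was 1728, against 6092 for the 40. Of the 40, 39 had a count of at least 1000, so rg alone set the cut.

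Values below 0 were nevertheless common. The log2 fold change was negative for 34 of 40 genes in A512P, against 49.4% of all tested genes, and for 35 of 40 in JmjC*, against 48.5%. The median was -0.13 in A512P and -0.17 in JmjC*, against 0.0027 (A512P) and 0.010 (JmjC*) over all genes tested in both. Among genes with a count at least that of rg, a cut with the same limit, 55.0% were negative in A512P and 54.0% in JmjC*. Their medians were -0.025 in A512P and -0.025 in JmjC*. No gene of the group reached a 1.5-fold change in either mutant, whereas 846 of the 2436 genes called in A512P and 1138 of the 3428 called in JmjC* did. Among uncalled genes of the group, no 95% interval reached below 71.4% (rg) of the wild-type level in A512P or below 67.7% (Alk) in JmjC*, and none reached above 132% (drk) in A512P or 129% (rg) in JmjC*.

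**Figure D2:**
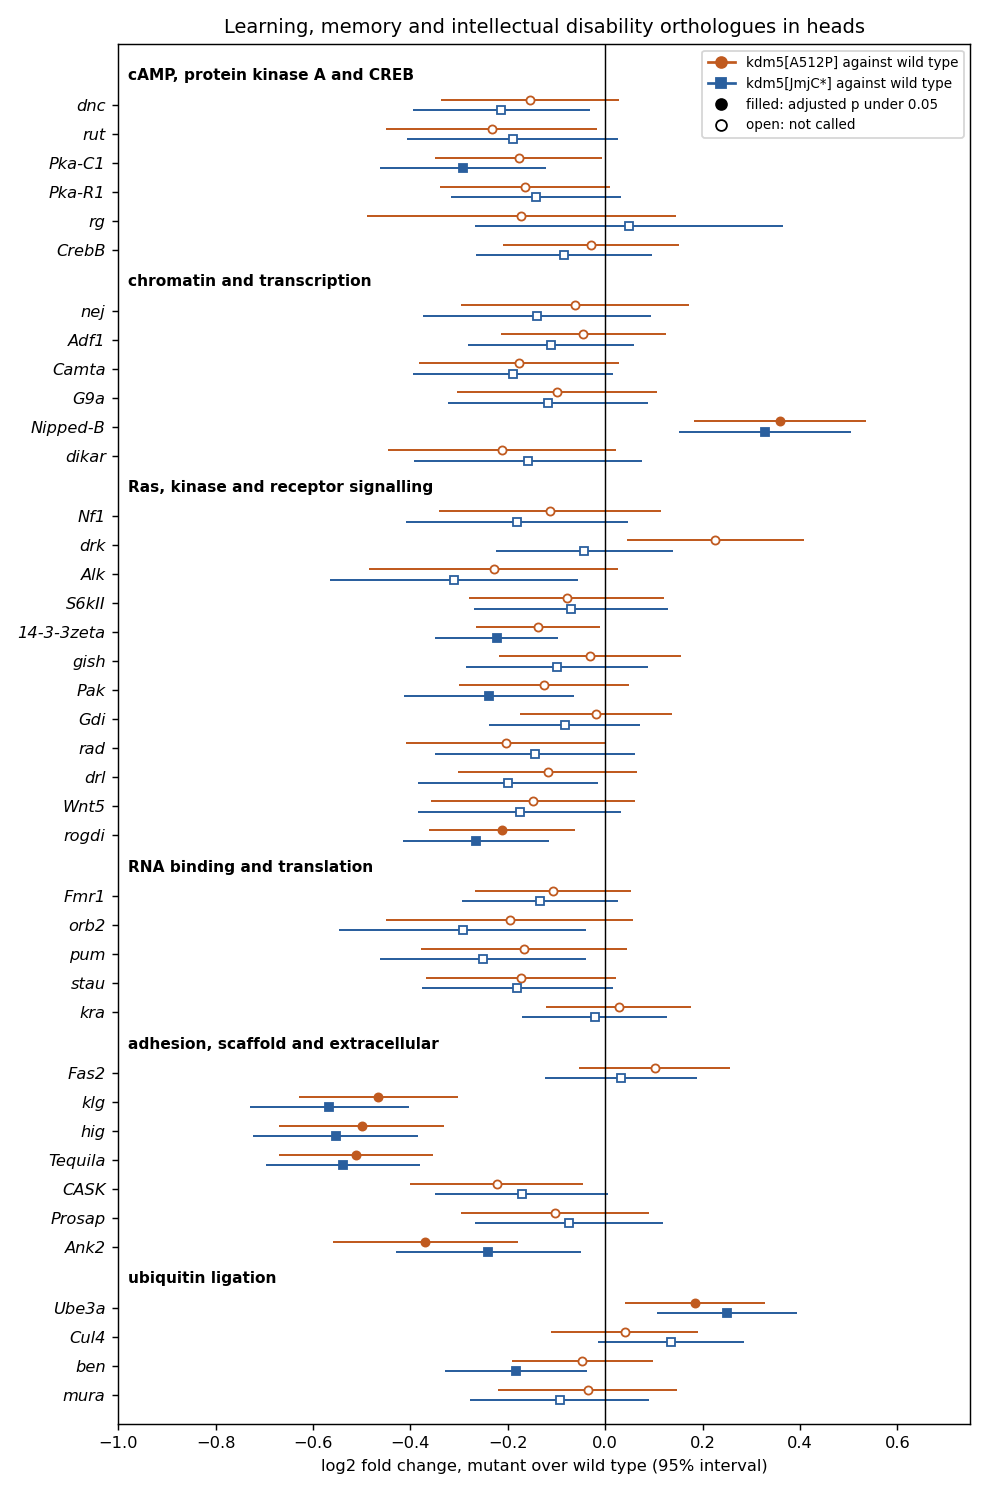
Log2 fold change over wild type with its 95% interval (horizontal axis) of each of the 40 genes, grouped by role, in A512P (orange circles) and JmjC* (blue squares) heads; filled symbols have an adjusted p under 0.05. The points of klg, hig and Tequila lie farthest to the left, between -0.47 and -0.57, and those of Nipped-B and Ube3a are the filled points to the right of 0.

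**Figure D3:**
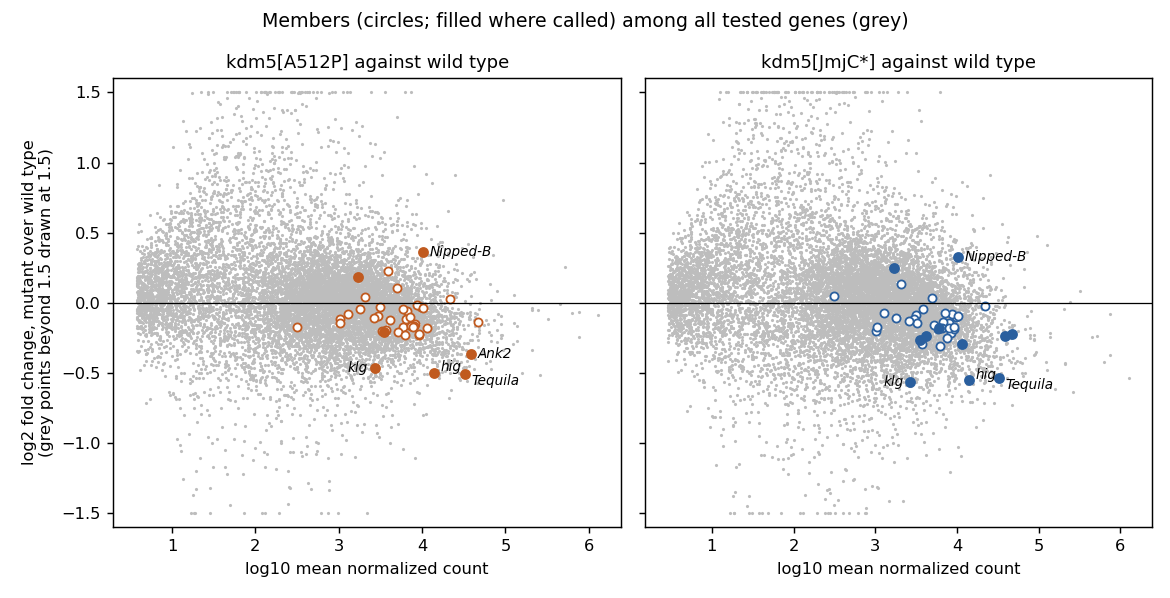
Log2 fold change over wild type against log10 mean normalized count for all tested genes (grey) in A512P (left panel) and JmjC* (right panel) heads, with the 40 genes as circles, filled where called. Among the 40, 39 have a mean normalized count of at least 1000. They sit towards high counts, which are not scaled to exon length here, mostly a little below 0.

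The largest falls were in the messenger RNA of klg, hig and Tequila, which encode secreted or cell-surface proteins. In the set of adhesion, scaffold and extracellular genes, 4 of 7 fell and 0 rose in A512P, and likewise in JmjC*. The role groups were formed here from genes chosen with earlier results of these data known, so their counts are a description. Falls made up 10.8% (A512P) and 14.6% (JmjC*) of all tested genes. The median log2 fold change of the set was -0.37 in A512P and -0.24 in JmjC*. The 4 in each comparison were klg, hig, Tequila and Ank2.

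Tequila (FBgn0023479, named teq in the annotation; 3L, 9074643 to 9092131, plus strand) encodes a secreted serine protease, the fly counterpart of human neurotrypsin, an intellectual disability gene. It was abundant, with a mean normalized count of 32439 in the authors' deposited table. In the authors' deposited table its level was 70.2% of wild type in A512P heads (95% interval 62.9% to 78.2%; log2 -0.51 ± 0.080 SE, adjusted p = 8.12e-09). In JmjC* heads it was 68.8% of wild type by the authors' deposited table (61.8% to 76.7%; log2 -0.54 ± 0.080 SE, adjusted p = 5.44e-10). A transposable element annotated within the gene covers 475 bases of its exons (5.22%).

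The gene hig, hikaru genki (FBgn0010114; 2R, 9227785 to 9247249, minus strand), encodes a protein secreted into the synaptic cleft. Its level in the authors' deposited table was 70.7% of wild type in A512P (63.0% to 79.4%; log2 -0.50 ± 0.085 SE, adjusted p = 1.72e-07). It was 68.1% of wild type in JmjC* (60.7% to 76.5%; log2 -0.55 ± 0.085 SE, adjusted p = 2.66e-09) in the authors' deposited table.

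The gene klg, klingon (FBgn0017590; 3R, 22899284 to 22961731, plus strand), encodes an immunoglobulin-family adhesion protein needed for long-term memory. It had a mean normalized count of 2691, below those of Tequila and hig, by the authors' deposited table. It stood at 72.4% of wild type in A512P (64.8% to 81.0%; log2 -0.47 ± 0.082 SE, adjusted p = 4.95e-07, the authors' deposited table). In JmjC* it stood at 67.5% (60.4% to 75.5%; log2 -0.57 ± 0.082 SE, adjusted p = 2.12e-10, the authors' deposited table). These 3 genes, Tequila, hig and klg, also passed a Bonferroni adjustment over all tested genes in both comparisons, and no other gene of the 40 did.

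Ank2 (FBgn0261788; 3L, 7655389 to 7718395, minus strand) encodes the neuronal ankyrin that ties membrane proteins to the axonal cytoskeleton. It was at 77.4% of wild type in A512P (67.9% to 88.2%; log2 -0.37 ± 0.096 SE, adjusted p = 0.00133) in the authors' deposited table. In JmjC* it was at 84.7% (74.3% to 96.5%; log2 -0.24 ± 0.096 SE, adjusted p = 0.0444, the authors' deposited table). That second call ended when all genes with a p-value were adjusted together (adjusted p = 0.0563). Of its 46942 exon bases, 5874 (12.5%) are shared with CG44195 on the same strand.

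CASK, Prosap and Fas2, also of this set, were not called. CASK, a membrane-associated scaffold kinase whose human counterpart is an intellectual disability gene, stood at log2 -0.22 ± 0.089 SE in A512P (adjusted p = 0.0563) and -0.17 in JmjC* in the authors' deposited table. In the annotation, 2669 of its 9545 exon bases are shared with CRG on the same strand, which is listed at 0. Its deposited exon length differs, at 8504 bases. The level of CASK is therefore uncertain. Prosap, the fly Shank scaffold of the postsynapse, stood at -0.10 in A512P and -0.074 in JmjC* in the authors' deposited table. Fas2, the NCAM-like adhesion protein used to outline mushroom body lobes, had positive values in the authors' deposited table, 0.10 ± 0.078 SE in A512P and 0.032 ± 0.078 SE in JmjC*. The set therefore held both the largest falls and a gene with values above 0.

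In the cyclic AMP pathway, the classical memory genes gave 0 calls among 6 in A512P and 1 fall among 6 in JmjC*. Of all tested genes, 21.0% were called in A512P and 28.8% in JmjC*. The median log2 fold change of the 6 genes was -0.17 in each comparison. Pka-C1 (FBgn0000273; 2L, 9682315 to 9699297, minus strand), the main catalytic subunit of protein kinase A, was the one that fell. In the authors' deposited table it stood at 88.4% of wild type in A512P (78.6% to 99.4%; adjusted p = 0.132). In JmjC* heads it fell to 81.7% of wild type (72.6% to 91.8%; log2 -0.29 ± 0.086 SE, adjusted p = 0.00408, the authors' deposited table). Its regulatory partner Pka-R1 stood at log2 -0.16 ± 0.088 SE in A512P and -0.14 ± 0.088 SE in JmjC* in the authors' deposited table, neither called.

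The first memory mutants isolated in flies, dnc and rut, act in opposite directions on cyclic AMP, and neither was called. The gene dnc, which encodes the phosphodiesterase that breaks cyclic AMP down, stood at 89.8% of wild type in A512P (79.3% to 102%) and 86.2% in JmjC* (76.1% to 97.7%; adjusted p = 0.0650), by the authors' deposited table. In JmjC* dnc passed, at an adjusted p of 0.0496, when fold changes were centred on their median. The gene rut, which encodes the calcium-responsive adenylyl cyclase that makes it, stood at 85.1% in A512P (73.3% to 98.8%; adjusted p = 0.117) and 87.7% in JmjC* (75.5% to 102%) by the authors' deposited table. CrebB, the transcription factor at the end of the pathway, was at 98.0% in A512P (86.6% to 111%) and 94.3% in JmjC* (83.3% to 107%) in the authors' deposited table.

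The anchoring protein rg, rugose, had the widest SE of the group, 0.161 in A512P and 0.160 in JmjC*, and a mean normalized count of 314 in the authors' deposited table. It stood at log2 -0.17 in A512P and 0.049 in JmjC*, neither called, by the authors' deposited table. Of its exon bases, 19353 (94.4%) are shared in the annotation with CG15465 on the same strand, which is listed at 0 in both deposited tables. The sources used here do not say how reads falling in both genes were counted, so the level and the change of rg are uncertain.

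Genes of the same pathway outside the 40 form a second list of 22 symbols. Of 19 tested, 5 fell and 1 rose in A512P (31.6% called, against 21.0% of all tested genes). In JmjC*, 8 fell and 1 rose (47.4% called, against 28.8%). The medians were -0.17 in A512P and -0.18 in JmjC* on the log2 scale. Oamb, an octopamine receptor, stood at log2 -0.50 ± 0.10 SE in A512P and -0.42 ± 0.10 SE in JmjC* in the authors' deposited table. Dop1R1, the dopamine receptor needed for learning in the mushroom body, fell by 0.54 ± 0.13 SE on the log2 scale in A512P (adjusted p = 2.43e-04, the authors' deposited table). In JmjC* Dop1R1 stood at log2 -0.43 ± 0.13 SE (adjusted p = 0.00354, the authors' deposited table), also called. The adenylyl cyclase Ac76E stood at log2 -0.27 in A512P and -0.35 in JmjC*, both called, in the authors' deposited table. The phosphodiesterase Pde6 stood at log2 -0.28 in A512P and -0.43 in JmjC*, both called, in the authors' deposited table.

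Among the 6 chromatin and transcription genes, 1 rose and 0 fell in each comparison. Over all tested genes, 21.0% were called in A512P and 28.8% in JmjC*. Nipped-B (FBgn0026401; 2R, 4691672 to 4729017, minus strand) encodes the loader of cohesin, the ring complex that holds chromatids and shapes chromatin loops; its human counterpart NIPBL is mutated in Cornelia de Lange syndrome. With a mean normalized count of 10241, it had the largest positive value of the 40 genes in both comparisons. It was at 128% of wild type in A512P (114% to 145%; log2 0.36 ± 0.089 SE, adjusted p = 6.79e-04) in the authors' deposited table. In JmjC* it was at 126% (111% to 142%; log2 0.33 ± 0.089 SE, adjusted p = 0.00158, the authors' deposited table).

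Beside Nipped-B, the 5 genes of this set had negative values and were not called. They ranged from log2 -0.21 for dikar to -0.045 for Adf1 in A512P, and from -0.19 for Camta to -0.11 for Adf1 in JmjC*, by the authors' deposited table. Adf1 is a transcription factor known from the memory mutant nalyot, and Camta a calmodulin-binding transcription activator. G9a, the histone H3 lysine methyltransferase whose human counterpart EHMT1 is mutated in Kleefstra syndrome, stood at -0.099 in A512P and -0.12 in JmjC*, in the authors' deposited table. The acetyltransferase nej, the fly CBP, stood at -0.063 ± 0.12 SE in A512P and -0.14 ± 0.12 SE in JmjC*, in the authors' deposited table.

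Other chromatin genes with human intellectual disability counterparts form a separate list of 20 symbols. Of 17 tested, 0 were called in A512P by the DESeq2 adjusted p (2 at an unadjusted p under 0.05), against 21.0% of all tested genes. In JmjC*, where 28.8% of all tested genes were called, 2 rose and 0 fell. They were SMC3, a core subunit of cohesin (log2 0.21 ± 0.082 SE, adjusted p = 0.0371), and rump, an RNA-binding protein that the list also holds (log2 0.17 ± 0.068 SE, adjusted p = 0.0498), in the authors' deposited table. The kdm5 gene itself, lid in the tables, stood at 94.5% of wild type in A512P (83.1% to 108%) and 92.9% in JmjC* (81.7% to 106%) in the authors' deposited table. Both alleles change the protein, so this level does not check the labels.

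Of the 12 genes grouped here under Ras, kinase and receptor signalling, 1 fell in A512P and 3 fell in JmjC*, with 0 rises in either. Falls made up 10.8% of all tested genes in A512P and 14.6% in JmjC*. Without rogdi, no gene of this set was called in A512P. The gene rogdi (FBgn0036697; 3L, 17049512 to 17055454, plus strand), a memory gene whose human counterpart ROGDI is mutated in Kohlschütter-Tönz syndrome, was called in both comparisons. Its level was 86.3% of wild type in A512P (77.9% to 95.6%; log2 -0.21 ± 0.075 SE, adjusted p = 0.0275) in the authors' deposited table. In JmjC* it was 83.2% (75.1% to 92.2%; log2 -0.26 ± 0.075 SE, adjusted p = 0.00284, the authors' deposited table).

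The most abundant gene of the group, 14-3-3zeta (FBgn0004907; 2R, 10099677 to 10109687, plus strand), is the memory gene leonardo, a phosphoserine-binding adaptor enriched in the mushroom body. In the authors' deposited table it stood at 90.9% of wild type in A512P (83.4% to 99.1%; adjusted p = 0.107). It fell to 85.7% in JmjC* (78.6% to 93.4%; log2 -0.22 ± 0.063 SE, adjusted p = 0.00288, the authors' deposited table). Pak (FBgn0267698; 3R, 6350896 to 6361614, plus strand), a kinase of the actin cytoskeleton related to human PAK3, stood at 91.7% in A512P (81.4% to 103%; adjusted p = 0.346, the authors' deposited table). It fell to 84.8% of wild type in JmjC* (75.2% to 95.6%; log2 -0.24 ± 0.088 SE, adjusted p = 0.0274, the authors' deposited table).

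The receptor tyrosine kinase Alk and the Ras inhibitor Nf1, neurofibromin, act in opposite directions on Ras signalling. Alk stood at 85.3% of wild type in A512P (71.6% to 102%) and 80.7% in JmjC* (67.7% to 96.1%; adjusted p = 0.0551), by the authors' deposited table. That value passed at an adjusted p of 0.0487 when genes with a mean normalized count under 100 were left out, and at 0.0453 when fold changes were centred on their median. Nf1 stood at 92.4% in A512P (79.0% to 108%) and 88.2% in JmjC* (75.4% to 103%), by the authors' deposited table. The ligand of Alk, jeb, which stood in the list of neuronal markers, fell by 0.75 ± 0.11 SE on the log2 scale in A512P (adjusted p = 4.47e-10) and by 0.94 ± 0.11 SE in JmjC* (adjusted p = 5.34e-16), in the authors' deposited table. The fall of the ligand was thus called in each comparison. Its receptor Alk was called in neither: it stayed just short of the threshold in JmjC* and farther from it in A512P (adjusted p = 0.209).

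The adaptor drk, the fly Grb2, which links receptor kinases to Ras, was the 1 signalling gene with a positive value in A512P. It stood at 117% of wild type there (103% to 132%; log2 0.23 ± 0.092 SE, adjusted p = 0.0596) and at 97.1% in JmjC* (85.7% to 110%) in the authors' deposited table. On the opposite strand, 578 of its 2946 exon bases (19.6%) are shared with mars, a mitotic gene, which rose by 0.79 ± 0.12 SE on the log2 scale in A512P and by 1.01 ± 0.12 SE in JmjC* in the authors' deposited table. The mean normalized count of mars was 293, against 3870 for drk, and the part of this overlap in the value of drk was not tested.

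The remaining signalling genes were not called in either comparison. The receptor drl, the fly Ryk, and its ligand Wnt5 stood at log2 -0.12 and -0.15 in A512P and at -0.20 and -0.18 in JmjC*, by the authors' deposited table. The gene rad, radish (named rsh in the annotation), needed for anaesthesia-resistant memory, stood at -0.20 ± 0.10 SE in A512P and -0.14 ± 0.10 SE in JmjC*, by the authors' deposited table. The casein kinase gish stood at -0.031 in A512P and -0.099 in JmjC*, and Gdi, which retrieves Rab GTPases from membranes, at -0.019 in A512P and -0.083 in JmjC*, by the authors' deposited table. S6kII, the fly counterpart of RSK2 of Coffin-Lowry syndrome, stood at -0.079 in A512P and -0.071 in JmjC* in the authors' deposited table. It shares 1541 exon bases with CG17598 on the opposite strand, and the sources used here do not say whether reads were counted by strand.

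A list of other intellectual disability orthologues in signalling and at the synapse gave 2 falls and 0 rises among 23 in A512P. That is 8.70% called, against 21.0% of all tested genes. It gave 4 falls and 1 rise in JmjC* (21.7% called, against 28.8%). The medians were -0.017 in A512P and -0.0040 in JmjC* on the log2 scale. The falls in A512P were the adhesion proteins Nlg4, a neuroligin (log2 -0.39 ± 0.11 SE), and Nlg2 (log2 -0.34 ± 0.093 SE), in the authors' deposited table. Nlg2 was called in JmjC* as well, at log2 -0.30 ± 0.092 SE, by the authors' deposited table. In JmjC*, the tetraspanin Tsp29Fa (log2 -0.79), Nlg1 (-0.68) and Nlg4 (-0.49) came first by adjusted p, by the authors' deposited table. Tsp29Fa (-0.39) and Nlg1 (-0.31) were not called in A512P, in the authors' deposited table.

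None of the 5 RNA-binding and translation genes was called in either comparison by the DESeq2 adjusted p. At an unadjusted p under 0.05 there were 0 in A512P and 2 in JmjC*. The share called among all tested genes was 21.0% in A512P and 28.8% in JmjC*. Fmr1, the fragile X protein that represses translation, stood at 92.8% of wild type in A512P (83.2% to 104%) and 91.1% in JmjC* (81.7% to 102%), by the authors' deposited table. The CPEB protein orb2, whose aggregation serves memory storage, stood at 87.3% in A512P (73.3% to 104%) and 81.6% in JmjC* (68.6% to 97.2%; adjusted p = 0.0709), by the authors' deposited table. Of the exon bases of orb2, 14.8% are shared with CG43783 on the same strand.

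The translational repressor pum stood at 89.1% in A512P (77.0% to 103%) and 84.0% in JmjC* (72.7% to 97.2%; adjusted p = 0.0622), by the authors' deposited table. In JmjC* pum passed, at an adjusted p of 0.0491, when fold changes were centred on their median. The transported RNA-binding protein stau stood at 88.7% in A512P (77.6% to 101%) and 88.2% in JmjC* (77.2% to 101%), by the authors' deposited table. The translation regulator kra, krasavietz, stood near wild type in both, at 102% in A512P (92.1% to 113%) and 98.5% in JmjC* (89.0% to 109%), by the authors' deposited table.

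Of the 4 genes of ubiquitin ligation, 1 rose and 0 fell in A512P, and 1 rose and 1 fell in JmjC*. Among all tested genes, 21.0% were called in A512P and 28.8% in JmjC*. Ube3a (FBgn0061469; 3L, 11206422 to 11210583, minus strand) encodes the ubiquitin ligase whose human counterpart is lost in Angelman syndrome. It was at 119% of wild type in JmjC* (108% to 131%; log2 0.25 ± 0.072 SE, adjusted p = 0.00331) in the authors' deposited table. In A512P it was at 114% (103% to 125%; log2 0.19 ± 0.072 SE) with an adjusted p of 0.0498 in the authors' deposited table, just under the threshold. That call ended when all genes with a p-value were adjusted together (adjusted p = 0.0645) and when the fold changes were centred on their median (adjusted p = 0.0535).

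The ubiquitin-conjugating enzyme ben, bendless (FBgn0000173; X, 13996345 to 13999805, plus strand), stood at 96.8% of wild type in A512P (87.6% to 107%; adjusted p = 0.716, the authors' deposited table). It fell to 88.0% in JmjC* (79.7% to 97.3%; log2 -0.18 ± 0.073 SE, adjusted p = 0.0436, the authors' deposited table), a call that ended when all genes with a p-value were adjusted together (adjusted p = 0.0551). Cul4, the cullin whose human relative CUL4B is an intellectual disability gene, stood at log2 0.040 in A512P and 0.13 in JmjC*, and the RING-finger gene mura at -0.036 in A512P and -0.093 in JmjC*, none called, by the authors' deposited table.

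Of the 11 genes called in at least 1 comparison, 9 have no exon base shared with another annotated gene, and the others are Ank2 and Tequila. By chromosome, ben was the only X-linked gene called: 0 of 11 X-linked genes of the group passed in A512P, against 18.0% of all X-linked genes, and 1 of 11 in JmjC*, against 28.9%. The autosomal genes of the group gave 24.1% called in A512P and 34.5% in JmjC*, against 21.5% (A512P) and 29.5% (JmjC*) of all autosomal genes.

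A direct comparison of A512P with JmjC* heads gave no gene of the 40 that passed the test. The difference of the 2 log2 fold changes was divided by an SE that ignores the shared wild type and is therefore an upper bound (two-sided normal test, Benjamini-Hochberg over 11608 genes). By this test 0 of 40 genes passed, with 1 at an unadjusted p under 0.05, against 102 of all 11608 genes (0.879%). With an SE that allows for the shared wild type, again 0 of 40 passed, with 1 at an unadjusted p under 0.05, against 429 of 11608 (3.7%). The difference, A512P minus JmjC*, was above 0 for 29 of the 40 genes, with a median of 0.053 on the log2 scale, against -0.0025 for all genes.

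The largest difference was that of drk, 0.27 on the log2 scale (95% interval 0.015 to 0.52, adjusted p = 0.882, and 0.0774 with the SE that allows for the shared wild type). The genes called in JmjC* alone had smaller ones. The difference was 0.14 for ben (-0.066 to 0.34), 0.11 for Pka-C1 (-0.12 to 0.35), 0.11 for Pak (-0.13 to 0.36) and 0.084 for 14-3-3zeta (-0.091 to 0.26). For the 3 genes with the largest falls it was 0.10 for klg (-0.13 to 0.33), 0.053 for hig (-0.18 to 0.29) and 0.028 for Tequila (-0.19 to 0.25). For 39 of the 40 genes the 95% interval lay within a 1.5-fold difference either way; the exception was rg (-0.66 to 0.22). A call in 1 mutant and not in the other thus does not show a difference between the alleles.

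**Figure D4:**
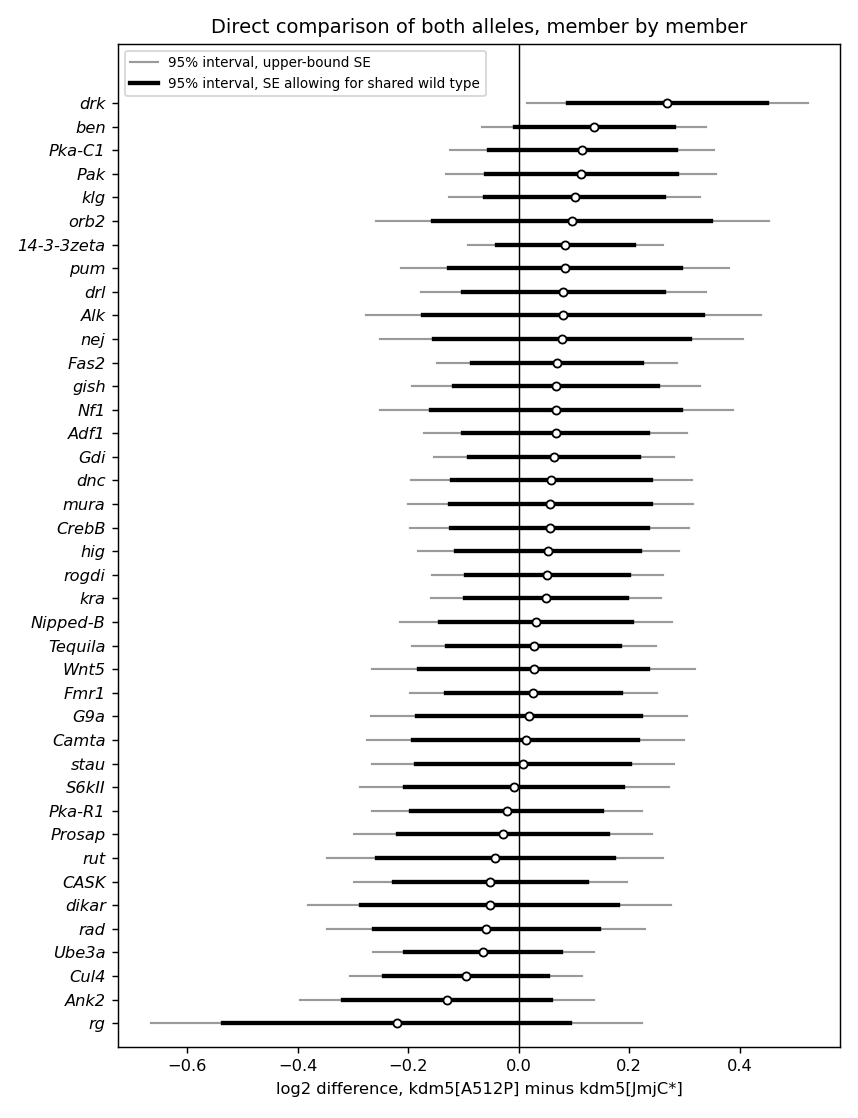
Log2 difference between A512P and JmjC* heads (A512P minus JmjC*, horizontal axis) for each of the 40 genes, ordered by size, with 95% intervals from an SE that is an upper bound (grey) and from one that allows for the shared wild type (black). The intervals of 39 genes include 0, and those of drk, at 0.27, do not.

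Other learning and memory genes form a separate list of 27 symbols that holds kinases, receptors and synaptic proteins. In A512P, 11 of 24 tested genes were called (45.8%, against 21.0% of all tested genes), with 5 rises and 6 falls. In JmjC*, 14 of 24 were called (58.3%, against 28.8%), with 4 rises and 10 falls. The medians were -0.14 in each comparison on the log2 scale. Hn, the phenylalanine hydroxylase gene, rose by 0.65 ± 0.14 SE on the log2 scale in A512P and by 0.75 ± 0.14 SE in JmjC*, in the authors' deposited table. The GTPase Rgk1 stood at log2 -0.46 ± 0.091 SE in A512P and -0.45 ± 0.091 SE in JmjC* in the authors' deposited table. The GTPase Rac1 stood at 0.32 ± 0.075 SE in each, by the authors' deposited table. The integrin scb stood at 0.35 ± 0.11 SE in A512P and 0.66 ± 0.11 SE in JmjC*, in the authors' deposited table. Arc1, a capsid-forming gene, stood at 0.45 ± 0.11 SE in A512P and 0.63 ± 0.11 SE in JmjC*, by the authors' deposited table. All of these were called in both comparisons. The lists and the 40 genes were chosen with earlier results of these data known, so these counts are a description.

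The neuronal markers also had mostly negative values. Of 12, 2 fell and 0 rose in A512P and 4 fell and 0 rose in JmjC*. Negative values were found for 11 in A512P and 12 in JmjC*, with medians of -0.14 in A512P and -0.22 in JmjC* on the log2 scale. Beside these and the marker counts below, falls made up 10.8% of all tested genes in A512P and 14.6% in JmjC*. Rises made up 10.2% in A512P and 14.2% in JmjC*. Besides jeb, the genes named by rank of adjusted p were nSyb (log2 -0.27 ± 0.080 SE) in A512P and nrv3 (-0.42) and Syx1A (-0.36) in JmjC*, by the authors' deposited table. nSyb was also called in JmjC*, at -0.24 ± 0.080 SE, in the authors' deposited table. In A512P nrv3 (-0.24) and Syx1A (-0.11) were not called, by the authors' deposited table. The pan-neuronal gene elav stood at 0.030 ± 0.12 SE in A512P and -0.033 ± 0.12 SE in JmjC* in the authors' deposited table. In a bulk sample, fewer cells of a type and less RNA per cell cannot be told apart, and the part of these markers in the values of the 40 genes was not tested.

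Mushroom body markers fell at 5 and rose at 1 of 13 in each comparison, with medians of -0.20 in A512P and -0.23 in JmjC* on the log2 scale. The peptide gene sNPF fell by 0.65 in A512P and by 0.86 in JmjC*, in the authors' deposited table. The transcription factor dac fell by 0.45 in A512P and by 0.40 in JmjC*, in the authors' deposited table. The gene ey rose by 0.30 in A512P and by 0.35 in JmjC*, by the authors' deposited table. Their part in the values of the 40 genes was not tested. Glial markers fell at 3 and rose at 1 of 12 in A512P, and fell at 6 and rose at 3 in JmjC*. The glial identity gene repo stood at -0.28 in A512P and -0.20 in JmjC*, Eaat1 at -0.30 in A512P and -0.48 in JmjC*, and Gat at -0.32 in A512P and -0.66 in JmjC*, all called, while moody rose by 0.42 in JmjC*, in the authors' deposited table.

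Among other tissues of the head, photoreceptor markers fell at 7 and rose at 1 of 12 in A512P, and fell at 4 and rose at 1 in JmjC*. First by adjusted p were rtp (-0.37), Arr1 (-0.34) and ninaC (-0.27) in A512P, and rtp (-0.35), trp (-0.37) and trpl (0.41) in JmjC*, by the authors' deposited table. Also called were ninaC in JmjC* (-0.22) and trp in A512P (-0.23), in the authors' deposited table. Not called were Arr1 in JmjC* (-0.044) and trpl in A512P (0.056), by the authors' deposited table. The main rhodopsin gene ninaE stood at -0.24 in A512P (adjusted p = 0.00500) and -0.084 in JmjC* (adjusted p = 0.404), in the authors' deposited table. Blood cell markers rose at 6 of 11 in A512P and 7 of 11 in JmjC* with 0 falls. NimC2 stood at 0.93 in A512P and 1.42 in JmjC*, and PPO3 at 1.05 in A512P and 1.26 in JmjC*, in the authors' deposited table. He stood at 1.04 in A512P and 0.75 in JmjC*, and Hml at 0.38 in A512P and 0.63 in JmjC*, by the authors' deposited table. Fat body markers gave 1 rise (bmm, 0.42) and 0 falls among 10 in A512P, and 3 falls and 0 rises in JmjC* (Lsd-2, -0.48; to, -0.50; Lsd-1, -0.48), in the authors' deposited table. Muscle markers gave 1 fall among 12 in A512P (wupA, -0.18) and 2 in JmjC* (wupA, -0.25; Mlc2, -0.25), in the authors' deposited table.

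**Figure D5:**
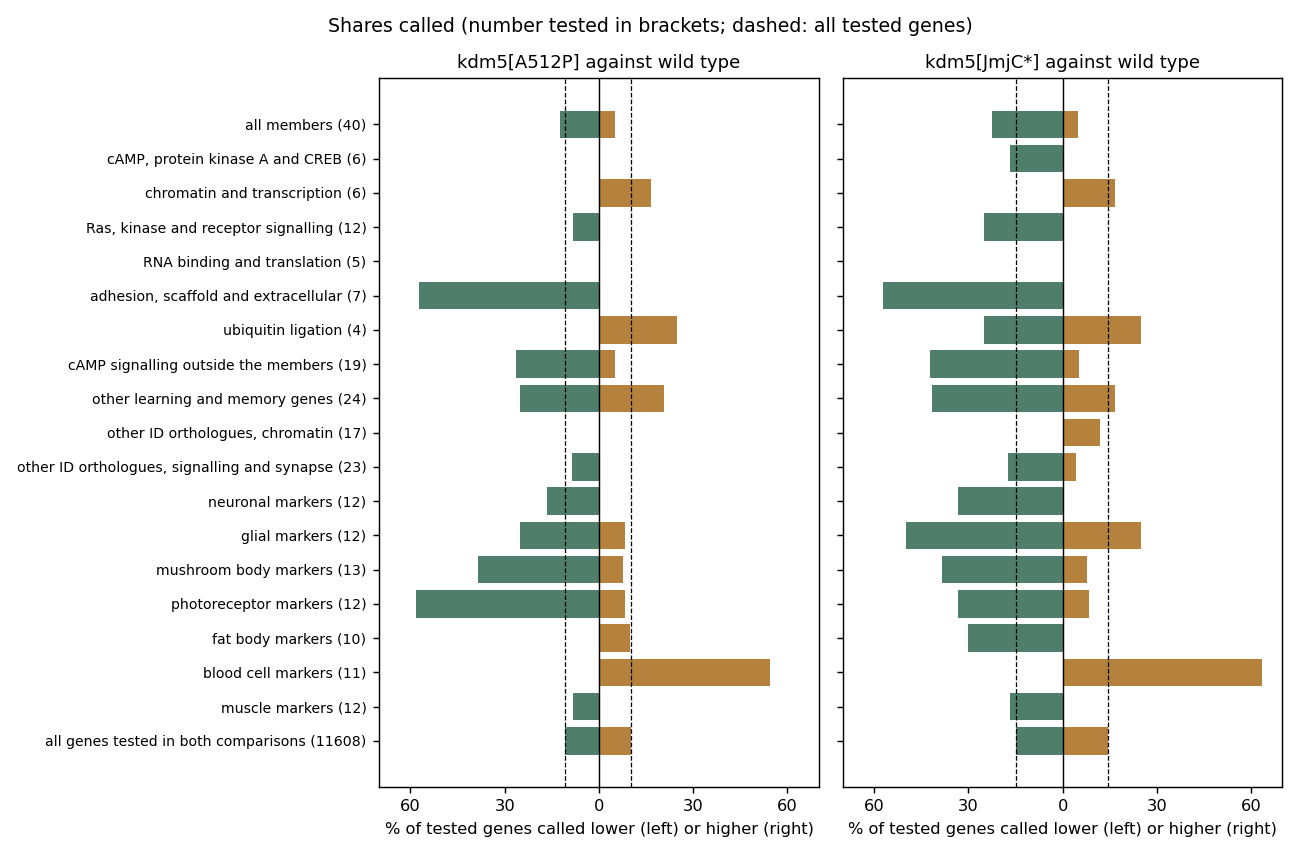
Share of tested genes called lower (bars to the left, green) and higher (bars to the right, brown) in A512P (left panel) and JmjC* (right panel) heads, for the 40 genes, their role groups, the other lists and all genes tested in both comparisons; dashed lines mark the shares of all genes. Among the role groups, adhesion, scaffold and extracellular genes have the longest bar to the left, 57.1% in each panel.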

How the data were processed

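Stranded messenger RNA libraries from whole heads were sequenced by the authors in 3 groups of 3, per the labels' protocols. The data used are 2 tables of the authors' own comparisons. The submitters' processing notes name the aligner STAR and DESeq2, without a version or genome build that could be used here, and no source here states whether counting used strand. Per the file headers, the authors deposited for each gene a mean normalized count (a signal over libraries, identical in both tables), a log2 fold change with its SE, a score (the Wald statistic), a p-value and an adjusted p-value, and a summed exon length. No library's values were read, so the depth per library is unknown here; precision is carried by the SE.

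Computed here, with Python 3.11.15, numpy 2.4.6, pandas 2.3.3 and scipy 1.17.1, were percentages of wild type, 95% intervals, counts per kilobase, list counts, and the direct test of A512P against JmjC*. Positions are those of the Ensembl release 115 annotation of BDGP6.54, which held 38 of the 40 gene identifiers, 34 of them with the same exon length. Every gene of the list is named, with full statistics where called; from each other list the 3 called genes with the smallest adjusted p per comparison are named, with elav, nSyb, repo and ninaE. The genes and lists were chosen with earlier results of these data known. Promoter motifs were planned and not analysed here. Alternatives are given in the closing section.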

Additional observations from a re-analysis of the deposited data

How the results depend on the processing

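At an adjusted p under 0.01, the genes of the group that rose in A512P numbered 1 in place of 2. At an adjusted p under 0.1, those that fell in JmjC* numbered 14 in place of 9. With all genes that have a p-value adjusted together, and with fold changes centred on the median of all tested genes, 1 rise was left in A512P, the rise of Nipped-B. With a Bonferroni adjustment, 3 genes were called in A512P and 3 in JmjC*, each with 3 falls and 0 rises, since this adjustment is stricter by construction. Other counts and the medians moved by at most 1.5 times or by less than the typical SE of the group under these alternatives. The same held with a minimum mean normalized count of 100. In the direct comparison of A512P with JmjC*, 0 genes of the group passed with the upper-bound SE, also at an adjusted p under 0.1. With the SE that allows for the shared wild type, 0 passed at 0.05, but drk had an adjusted p of 0.0774, under 0.1. No paired analysis was possible because the tables hold no values per library; for the same reason leaving out single libraries and the edgeR test were not run. The SEs limit what could be called. Uncalled genes of the 40 had values down to log2 -0.23 (rut) in A512P and -0.31 (Alk) in JmjC*. Their highest values were 0.23 (drk) in A512P and 0.13 (Cul4) in JmjC*. The smallest called change, in absolute value, was 0.19 in A512P and 0.18 in JmjC*.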
